A study of Mus musculus with 2 samples.

Results

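The hypoxia pathway genes examined here are 35 genes of HIF subunits, oxygen-sensing enzymes and HIF targets outside glycolysis, picked from the expression table by symbol. All 35 were among its 30868 listed features, and 26 reached a mean of 1 RPKM (a read count divided by gene length and library size), the level from which a gene is called measured here. They were followed in MIN6, an insulin-secreting mouse insulinoma line used as a beta cell model, in a series on lactate dehydrogenase A and histone lactylation under glucotoxicity. There were 2 libraries, 1 per group: the treated library, labelled high glucose and palmitate, and the normal library, labelled normal. For the treatment the labels give glucose at 33.3 mmol/l, palmitate at 0.4 mmol/l and albumin at 0.5%. That text stands on both sample records, so what the normal cells received cannot be read from it. The sources used here do not state the oxygen tension, and no label describes a genetic change in either group. MIN6 is an established tumour line, and its cells are not those of a primary islet.

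The transcription factor HIF pairs an oxygen-labile alpha subunit with a stable partner, ARNT. When oxygen is present, prolyl hydroxylases of the EGLN family mark the alpha subunit, VHL binds the mark and the protein is degraded, while the asparaginyl hydroxylase HIF1AN blocks its coactivators. When oxygen falls, the alpha subunit accumulates and turns on genes for glucose uptake, glycolysis, mitophagy, collagen modification and blood vessel growth. Because this control acts on the protein, the mRNA of the alpha subunit is not a readout of HIF activity. Beta cells consume much oxygen when they metabolise glucose, and loss of VHL in mouse beta cells is known to impair glucose-stimulated insulin secretion.

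Most HIF target genes had ratios of treated to normal RPKM below 1, and 7 of them fell past the line used here, while both measured HIF subunit genes had ratios above 1 that did not reach it. Of the 26 measured genes, 7 were lower by at least 0.32 on the scale of log2 of RPKM plus 0.5, which is a ratio of 0.8, and 0 were higher by that much. A gene past this line is called lower or higher below. Among all 13947 measured features, 6.04% were lower and 5.89% higher by this rule, beside 26.9% and 0% of the hypoxia genes. The median log2 ratio of the 26 genes was -0.23, and that of all measured features was 0.0028. Log2 ratios below 0 were found for 20 of the 26 and ratios above 0 for 6, against 49.3% and 50.7% of all features. The 7 lower genes were Ankrd37, Fam162a, Ak4, Slc2a1, Bnip3, P4ha2 and P4ha1, which lie on 6 chromosomes. With 1 library per group there is no replicate error, so none of these differences was tested and each compares 2 libraries, not 2 conditions.

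Each ratio below is treated over normal RPKM, and the range in brackets is an exact 95% interval from the reads behind it. It covers counting error only. The treated library held 43727919 assigned reads and the normal library 44149406. Of counts between 1 and 19 reads, 75.9% were even, as would occur if both mates of read pairs had been counted, and the intervals are then too narrow. By these intervals 17 of the 26 genes lay below 1 and 5 above it, where 22.3% and 22% of all measured features did. With the reads halved, 18 of those 22 intervals still excluded 1, and the exceptions were Hif1an, Vhl, Ddit4 and Ndrg1.

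**Figure D1:**
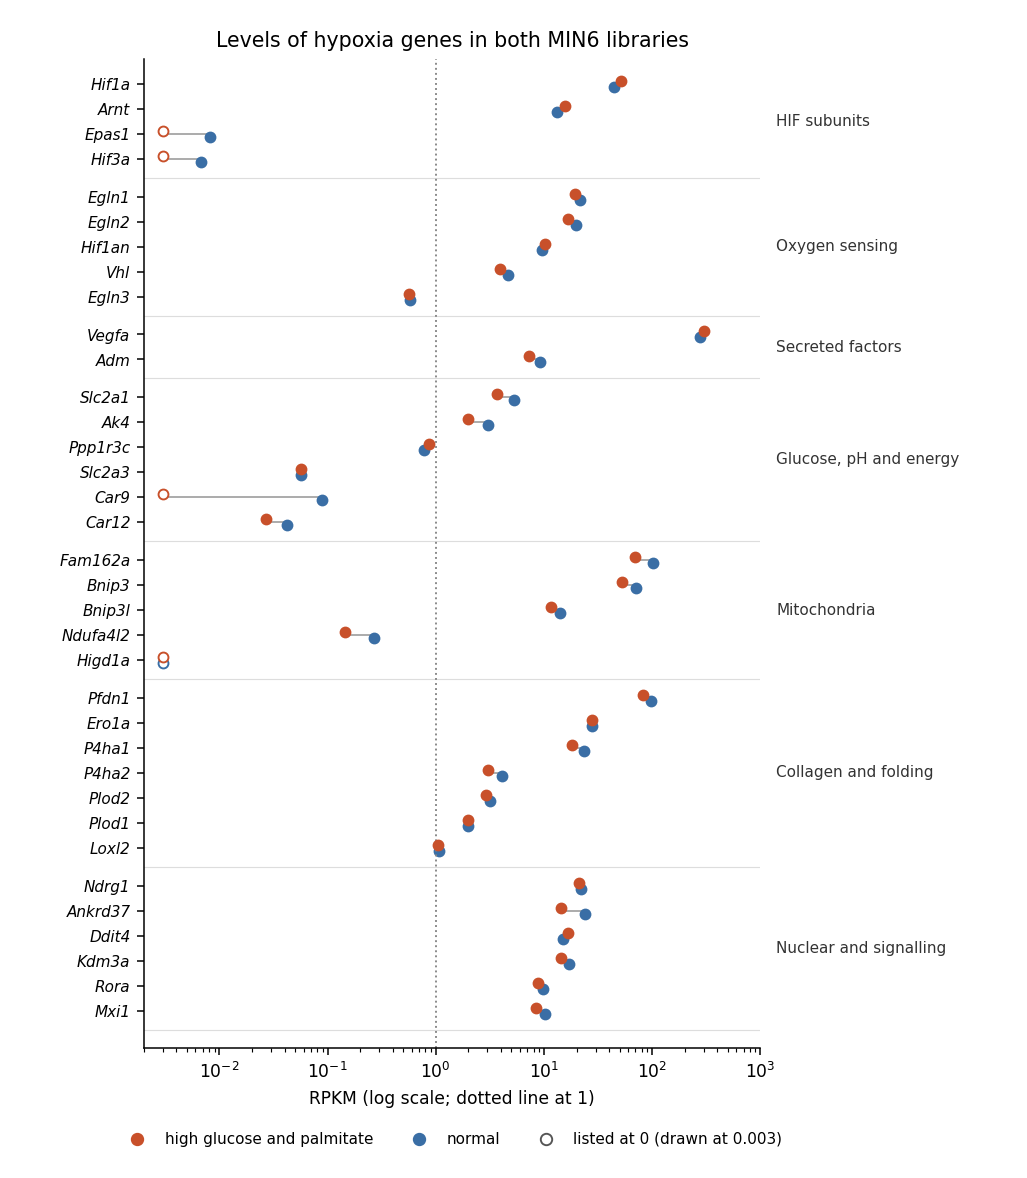
RPKM of all 35 hypoxia genes in the treated library (orange) and the normal library (blue) on a log axis, grouped by role. Hollow points mark genes listed at 0, and the points of 26 genes lie around or right of the dotted line at 1 RPKM. Vegfa stands highest, at 299 RPKM in the treated library and 274 RPKM in the normal one.

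Promoter sequences of 5 of the 7 lower genes are shown because HIF binds a short core, ACGTG or GCGTG, within the hypoxia response element. Windows ran from 250 bases before to 50 bases after each transcript start and came from RefSeq on build GRCm38.p6. They matched 27 of the 35 genes, 21 of them measured. Capitals mark every ACGTG or GCGTG on either strand, so the complements CACGT and CACGC are capitals too.
Ankrd37, a nuclear ankyrin repeat gene and HIF target, GRCm38.p6 chr8:45999801-46000100, minus strand: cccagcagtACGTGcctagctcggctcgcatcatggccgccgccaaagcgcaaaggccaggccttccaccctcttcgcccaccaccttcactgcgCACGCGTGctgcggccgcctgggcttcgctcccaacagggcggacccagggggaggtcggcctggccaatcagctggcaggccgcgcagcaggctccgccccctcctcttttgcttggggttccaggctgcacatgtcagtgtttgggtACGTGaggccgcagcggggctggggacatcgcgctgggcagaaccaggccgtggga
Fam162a, GRCm38.p6 chr16:36071512-36071811, minus strand: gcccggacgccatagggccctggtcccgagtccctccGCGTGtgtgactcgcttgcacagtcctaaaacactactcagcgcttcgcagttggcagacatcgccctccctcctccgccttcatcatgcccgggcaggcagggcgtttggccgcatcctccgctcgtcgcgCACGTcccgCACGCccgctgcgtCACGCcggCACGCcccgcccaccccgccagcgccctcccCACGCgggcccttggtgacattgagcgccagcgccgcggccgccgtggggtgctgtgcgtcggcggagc
Bnip3, GRCm38.p6 chr7:138909457-138909756, minus strand: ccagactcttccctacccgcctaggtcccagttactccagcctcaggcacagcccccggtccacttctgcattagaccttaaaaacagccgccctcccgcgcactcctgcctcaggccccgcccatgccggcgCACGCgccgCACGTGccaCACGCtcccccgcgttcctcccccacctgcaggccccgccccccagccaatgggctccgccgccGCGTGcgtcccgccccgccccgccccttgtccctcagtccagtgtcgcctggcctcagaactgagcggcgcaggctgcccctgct
Slc2a1, GRCm38.p6 chr4:119108495-119108794, plus strand: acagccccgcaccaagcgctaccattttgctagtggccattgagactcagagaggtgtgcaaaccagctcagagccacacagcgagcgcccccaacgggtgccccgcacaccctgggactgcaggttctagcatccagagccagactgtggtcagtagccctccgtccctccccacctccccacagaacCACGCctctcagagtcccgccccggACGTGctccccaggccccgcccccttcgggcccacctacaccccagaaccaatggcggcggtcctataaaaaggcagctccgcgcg
P4ha2, GRCm38.p6 chr11:54100674-54100973, plus strand: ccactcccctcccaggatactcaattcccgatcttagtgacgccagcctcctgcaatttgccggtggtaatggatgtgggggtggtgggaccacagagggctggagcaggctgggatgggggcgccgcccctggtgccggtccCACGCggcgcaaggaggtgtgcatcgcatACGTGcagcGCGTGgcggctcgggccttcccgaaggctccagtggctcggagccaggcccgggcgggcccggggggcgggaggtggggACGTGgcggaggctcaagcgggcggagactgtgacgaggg
The first windows of a pair of genes that did not pass the line are given beside them.
Hif1a, GRCm38.p6 chr12:73907617-73907916, plus strand: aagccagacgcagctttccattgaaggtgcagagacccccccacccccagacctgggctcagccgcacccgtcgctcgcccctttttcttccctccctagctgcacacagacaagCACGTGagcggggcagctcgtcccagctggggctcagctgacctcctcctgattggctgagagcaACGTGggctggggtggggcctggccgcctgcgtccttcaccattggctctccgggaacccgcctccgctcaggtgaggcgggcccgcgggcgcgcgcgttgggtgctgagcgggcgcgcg
Vegfa, GRCm38.p6 chr17:46032328-46032627, minus strand: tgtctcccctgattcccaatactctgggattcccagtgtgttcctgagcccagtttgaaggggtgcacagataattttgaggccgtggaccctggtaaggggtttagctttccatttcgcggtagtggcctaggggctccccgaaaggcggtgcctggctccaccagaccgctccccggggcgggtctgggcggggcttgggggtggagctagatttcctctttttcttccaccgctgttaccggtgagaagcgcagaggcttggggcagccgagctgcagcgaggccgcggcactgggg

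The 7 lower genes all had at least 1 such core in a window. Ankrd37 had 4 matches, of which the nearest began 6 bases before the start, in gtttgggtACGTGaggccgca. Fam162a had 6 matches, P4ha2 4, Slc2a1 2 and Bnip3 5, where CACGTG, an E-box that reads ACGTG on either strand, counts as 2. In P4ha1 the ACGTG nearest the start read acagagcgCACGTagcgaggg, and in Ak4 a GCGTG read cggcggtaGCGTGgagccggc. A core is common, and 62.39% of the 11642 windows of measured features held one, as did 80% of the 30 windows of measured hypoxia genes. For ACGTG alone the shares were 53.33% of the windows of measured hypoxia genes and 25.74% of those of measured features. CACGTG was in 13.33% and 9.938% of them. These shares count windows, and windows of 1 gene can overlap and hold the same sites, as for Ak4. Counted by gene, 19 of 21 measured hypoxia genes held a core in any window, beside 6234 of 9130 measured genes. For ACGTG alone the numbers of genes were 15 and 2723.

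Whether a core goes with a lower ratio could not be seen among the hypoxia genes, since only 2 measured ones with a window lacked it. Of 19 measured hypoxia genes with a core, 7 were lower past the line, and Hif1a and Arnt, the highest by ratio, also held one. Vhl and Hif1an had none, and neither passed the line. Over all measured genes with a window, 3.77% of the 6234 genes with a core and 5.18% of the 2896 without one were lower. The first Vegfa window, printed above, held no core, but a second window held 1 ACGTG and 1 GCGTG, so Vegfa counts among the 19. That second window, at chr17:46025114-46025413 on the minus strand, lies downstream of the first and within the gene. Whether its cores fall in coding sequence was not annotated, so Vegfa has no core upstream of its first start in these windows. A match is a sequence description and not a bound site.

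**Figure D2:**
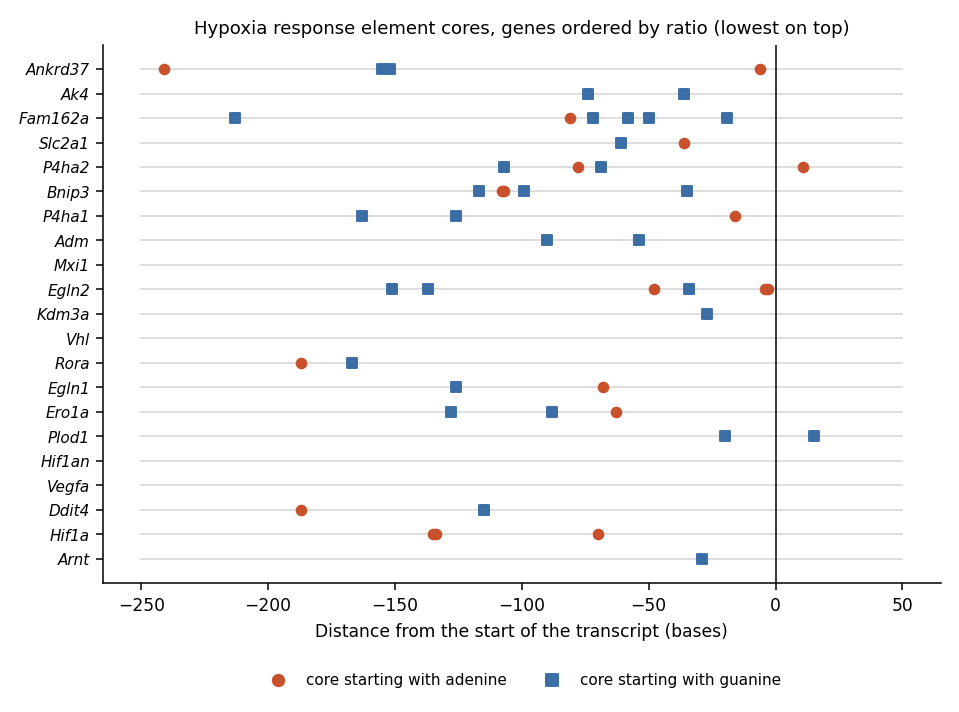
Positions of the 2 kinds of core in the first RefSeq window of each of the 21 measured hypoxia genes with one, in bases from the transcript start, with genes ordered by ratio and the lowest on top. Orange circles mark the core that starts with adenine and blue squares the one that starts with guanine. Cores are spread over the genes from Ankrd37 at the top to Arnt at the bottom, and 4 genes have none in this window.

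Among the HIF subunits, Hif1a was the only alpha subunit gene with more than a trace of reads. It had 51.7 RPKM in the treated library and 44.1 RPKM in the normal one, a ratio of 1.17 (1.14 to 1.20). On GRCm39, Hif1a spans bases 73948149 to 73994304 of chromosome 12, plus strand. Arnt, the gene of the stable partner, had 15.7 RPKM in the treated library and 13.2 RPKM in the normal one, a ratio of 1.19 (1.15 to 1.24). Neither subunit gene passed the line of 0.32 log2, and the level of Hif1a was 3.29 times that of Arnt in the treated library and 3.34 times in the normal one. Their log2 ratios exceeded those of 88.8% and 90.2% of measured features. Epas1, which encodes the alpha subunit of HIF-2 prominent in endothelium, had 0 reads in the treated library and 2 reads in the normal one. Hif3a, whose product can act as an inhibitor, also had 0 and 2 reads. In both cases the count is at or under the limit of 3 reads that a count of 0 allows, so no fold is given.

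The enzymes that mark HIF for degradation had ratios a little below 1 and the asparaginyl hydroxylase one a little above it. Egln1, which encodes the main HIF prolyl hydroxylase, had 19.2 RPKM in the treated library and 21.4 RPKM in the normal one, a ratio of 0.898 (0.855 to 0.943). Egln2, a related prolyl hydroxylase gene, had 16.5 RPKM in the treated library and 19.8 RPKM in the normal one, a ratio of 0.836 (0.788 to 0.888). Egln3, the member of the family that hypoxia induces most in many cells, was low, at 0.567 RPKM in the treated library and 0.579 RPKM in the normal one. Its ratio of 0.98 (0.688 to 1.40) spans 1. In the treated library Egln1 made up 52.9% of the summed RPKM of the 3 genes and Egln3 1.56%, against 51.3% and 1.39% in the normal library. Vhl, the substrate receptor of the ubiquitin ligase, had 3.95 RPKM in the treated library and 4.65 RPKM in the normal one, a ratio of 0.85 (0.755 to 0.957). Hif1an had 10.2 RPKM in the treated library and 9.54 RPKM in the normal one, a ratio of 1.07 (1.01 to 1.12). None of the 4 measured genes among them passed the line of 0.32 log2.

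**Figure D3:**
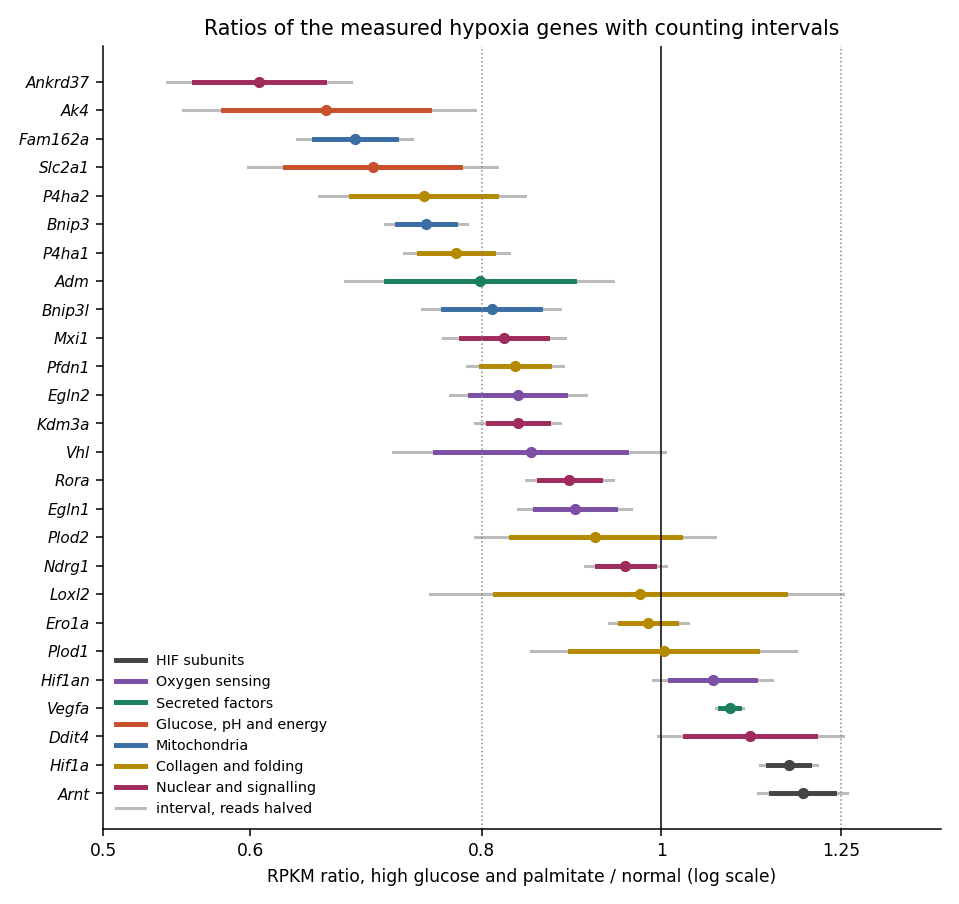
Ratio of treated to normal RPKM for the 26 measured hypoxia genes on a log axis, coloured by role, with 95% counting intervals from all reads (thick) and from halved reads (thin grey). The order runs from Ankrd37 at 0.607 to Arnt at 1.19, and the dotted lines mark a plain ratio of 0.8 and its inverse. Adm lies just left of the lower line but is not past it on the scale of RPKM plus 0.5.

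Ankrd37 had the lowest ratio of the 26 measured hypoxia genes. It had 14.4 RPKM in the treated library and 23.8 RPKM in the normal one, a ratio of 0.607 (0.56 to 0.657), and only 0.903% of measured features had a lower log2 ratio. With 0.5 added to each RPKM it was the single measured hypoxia gene past 1.5-fold, a line that 1.48% of all measured features passed downwards and 1.74% upwards. On that scale Fam162a and Ak4 came next, at log2 ratios of -0.55 and -0.50, and none of the 26 passed 2-fold, which 0.366% of features did downwards and 0.538% upwards. On GRCm39, Ankrd37 spans bases 46449939 to 46458744 of chromosome 8, minus strand. Its exons overlap those of Ufsp2 and Lrp2bp on the opposite strand. Ufsp2 had 7.24 RPKM in the treated library and 7.14 RPKM in the normal one, and Lrp2bp 1.22 and 1.47 RPKM. The sources used here do not state whether reads were counted by strand, so those of such pairs cannot be told apart.

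Of the 3 measured mitochondrial targets 2 were lower past the line, where 6.04% of all measured features were. So few genes do not give a share for the role. Fam162a, a mitochondrial protein gene linked to hypoxia-induced cell death, had 69.2 RPKM in the treated library and 101 RPKM in the normal one, a ratio of 0.684 (0.65 to 0.719). Bnip3, a mitophagy receptor gene, had 52.5 RPKM in the treated library and 70.4 RPKM in the normal one, a ratio of 0.747 (0.72 to 0.774). Its relative Bnip3l, also called Nix, had 11.5 RPKM in the treated library and 14.2 RPKM in the normal one, a ratio of 0.81 (0.762 to 0.86), short of that line. Per length, Bnip3 stood 4.57 times as high as Bnip3l in the treated library and 4.95 times in the normal one. Bnip1 and Bnip2, genes of similar name that are not mitophagy receptors, had ratios of 1.02 (0.892 to 1.16) and 1.00 (0.927 to 1.08). They are named here after their values were seen. Ndufa4l2, whose product dampens complex I activity in hypoxia, had 7 reads in the treated library and 13 reads in the normal one. Higd1a, a mitochondrial hypoxia-response gene, was listed at 0 in both libraries, where 3 reads would be 0.0226 RPKM in the treated library and 0.0224 RPKM in the normal library. Whether that 0 reflects the counting or the annotation could not be settled. On GRCm39, Fam162a spans bases 35864131 to 35891964 of chromosome 16, minus strand. On GRCm39, Bnip3 spans bases 138492565 to 138511248 of chromosome 7, minus strand.

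Both measured genes of glucose uptake and energy supply were lower, again too few for a share to set beside the 6.04% of all measured features. Slc2a1 encodes GLUT1, the glucose transporter that HIF induces in many cells, whereas rodent beta cells rely mainly on GLUT2. It had 3.69 RPKM in the treated library and 5.28 RPKM in the normal one, a ratio of 0.699 (0.626 to 0.779). The GLUT2 gene Slc2a2 was lower too, at 10.1 RPKM in the treated library and 13.0 RPKM in the normal one, a ratio of 0.773 (0.734 to 0.814). Slc2a3, the gene of GLUT3, had 18 reads in each library. Ak4, a mitochondrial adenylate kinase gene, had 1.98 RPKM in the treated library and 3.01 RPKM in the normal one, a ratio of 0.659 (0.58 to 0.749). It has no exon overlap with another listed feature. On GRCm39, Slc2a1 spans bases 118965908 to 118995180 of chromosome 4, plus strand. On GRCm39, Ak4 spans bases 101276474 to 101324192 of chromosome 4, plus strand.

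The pH control genes in the set had few reads, and the glycogen gene lay just below 1 RPKM. Car9, a carbonic anhydrase gene and widely used marker of hypoxia, had 0 reads in the treated library and 9 reads in the normal one. The interval of its ratio ran from 0 to 0.512 with all reads and from 0 to 1.53 with reads halved. Car9 shares exons with Gm12454 on the opposite strand, which had 0 reads in the treated library and 14 reads in the normal one. Which of these features the reads came from cannot be told. Car12, another carbonic anhydrase gene, had 9 reads in the treated library and 14 reads in the normal one. Ppp1r3c, which targets protein phosphatase to glycogen, stood at 0.873 RPKM in the treated library and 0.773 RPKM in the normal one, a ratio of 1.13 (0.845 to 1.51).

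The secreted targets went separate ways. Vegfa, the gene of the main angiogenic growth factor and also a target of stress pathways other than HIF, was the most abundant hypoxia gene. It had 299 RPKM in the treated library and 274 RPKM in the normal one, a ratio of 1.09 (1.08 to 1.10). On GRCm39, Vegfa spans bases 46327919 to 46343295 of chromosome 17, minus strand. Adm, the gene of the vasodilator adrenomedullin, had 7.32 RPKM in the treated library and 9.16 RPKM in the normal one, a ratio of 0.798 (0.71 to 0.897). On the log2 scale its -0.31 was the closest to the line of -0.32 among genes that did not pass it.

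Collagen-modifying enzymes of the set split by family. P4ha1, which encodes a catalytic subunit of collagen prolyl 4-hydroxylase, had 18.1 RPKM in the treated library and 23.4 RPKM in the normal one, a ratio of 0.775 (0.74 to 0.811). P4ha2, another such subunit gene, had 3.07 RPKM in the treated library and 4.12 RPKM in the normal one, a ratio of 0.745 (0.68 to 0.815). These 2 genes have no exon overlap with other listed features. The lysyl hydroxylase genes lay closer to 1. Plod1 had 1.99 RPKM in the treated library and 1.99 RPKM in the normal one, a ratio of 1.00 (0.893 to 1.13), and Plod2 a ratio of 0.921 (0.83 to 1.02). Loxl2, a lysyl oxidase relative, was barely measured, at 1.04 RPKM in the treated library and 1.06 RPKM in the normal one, a ratio of 0.974 (0.814 to 1.17). On GRCm39, P4ha1 spans bases 59159118 to 59209126 of chromosome 10, plus strand. On GRCm39, P4ha2 spans bases 53990921 to 54022491 of chromosome 11, plus strand.

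The list of other enzymes that act on collagen had few measured genes. Of 15 further collagen-modification genes 6 were measured, of which 0 were lower and 0 higher past 0.32 log2, with a median log2 ratio of 0.01. At 6.04% lower among all features, 0 of 6 gives no contrast with P4ha1 and P4ha2. P4hb, which encodes the beta subunit that P4HA proteins bind and is also a disulfide isomerase of the endoplasmic reticulum, had 165 RPKM in the treated library and 133 RPKM in the normal one, a ratio of 1.24 (1.22 to 1.27). It is named after its value was seen, as the list's highest. Of the remaining folding genes in the hypoxia set, Ero1a, an oxidase of the endoplasmic reticulum that serves disulfide formation, had 27.6 RPKM in the treated library and 28.0 RPKM in the normal one, a ratio of 0.983 (0.95 to 1.02). Pfdn1, which encodes a prefoldin subunit, had 81.4 RPKM in the treated library and 97.6 RPKM in the normal one, a ratio of 0.834 (0.799 to 0.87). The other listed prefoldin genes, named after their values were seen, had ratios from 0.958 for Pfdn2 to 1.04 for Pfdn5.

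Of 6 measured nuclear and signalling targets, Ankrd37 passed the line, 4 others had ratios nearer to 1 but below it, and Ddit4 had one above it. Downwards, 6.04% of all measured features passed the line. Kdm3a, a histone H3 lysine 9 demethylase gene that HIF induces, had 14.2 RPKM in the treated library and 17.0 RPKM in the normal one, a ratio of 0.836 (0.806 to 0.868). Its relatives Kdm3b and Jmjd1c, named after their values were seen, had ratios of 0.976 (0.94 to 1.01) and 1.06 (1.03 to 1.09). The relatives named beside Bnip3, Pfdn1 and Kdm3a thus had the higher ratios. For some other hypoxia genes a relative had the lower ratio, as did Mxd3, given with the paralogs below. Ero1b stood at 0.8 (0.784 to 0.816) beside 0.983 for Ero1a, and Vegfb at 0.79 (0.704 to 0.886) beside 1.09 for Vegfa. Ndrg3 stood at 0.811 (0.772 to 0.853) beside 0.956 for Ndrg1. Ero1b, Vegfb and Ndrg3 too are named after their values were seen. Mxi1, a gene of the MXD family that opposes MYC, had 8.35 RPKM in the treated library and 10.2 RPKM in the normal one, a ratio of 0.822 (0.779 to 0.867). Rora, a nuclear receptor gene, had 8.82 RPKM in the treated library and 9.89 RPKM in the normal one, a ratio of 0.892 (0.859 to 0.926). Ndrg1, a stress-response gene, was close to 1 at 0.956 (0.923 to 0.991), with 21.0 RPKM in the treated library and 22.0 RPKM in the normal one. Ddit4 encodes REDD1, an inhibitor of mTORC1 that ATF4 and glucocorticoids also induce. It had 16.6 RPKM in the treated library and 14.8 RPKM in the normal one, a ratio of 1.12 (1.03 to 1.21).

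**Figure D4:**
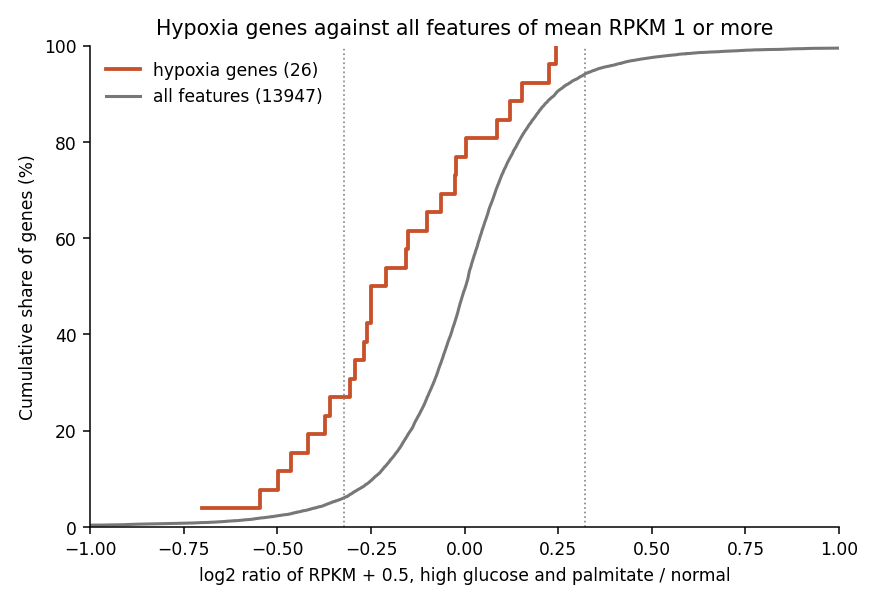
Cumulative share of the 26 measured hypoxia genes (orange) and of all 13947 measured features (grey) by log2 ratio of RPKM plus 0.5, treated over normal. From a log2 ratio of -0.70 upwards the orange curve runs left of the grey one, with medians of -0.23 and 0.0028, and dotted lines mark -0.32 and 0.32. A few features beyond a log2 ratio of 1 in either direction are outside the axis.

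By role, the genes past the line were all targets. Of 20 measured target genes 17 had a log2 ratio below 0, with a median of -0.26, and 7 passed the line of 0.32 log2. Of 6 measured subunit and oxygen-sensing genes 3 lay on either side of 0, with a median of -0.03, and 0 passed it, where 6.04% of all features were lower. Whether these 2 groups differ was not tested.

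Some glycolytic HIF targets passed the line as well, and no further HIF regulator did. All 20 further HIF regulators, from coactivators such as Ep300 to chaperones and ligase components, were measured, 0 passed that line in either direction, and the median was -0.0028. With 6.04% of all features lower and 5.89% higher, a count of 0 among 20 is close to the background. Of 19 glycolytic HIF targets 17 were measured, 5 were lower and 0 higher past it, which is 29.4% and 0%, and the median was -0.24. Those 5 were Pdk1, which restrains pyruvate entry into mitochondria, Ldha, named in the series title, Pfkl, Gpi1 and Pgk1. Ldha had 23.3 RPKM in the treated library and 30.8 RPKM in the normal one, and Pdk1 3.48 and 4.93 RPKM, a ratio of 0.706 (0.655 to 0.761).

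Among 43 further HIF targets outside glycolysis, 28 were measured, with a median log2 ratio of -0.14. Of the 28, 5 were lower and 2 higher past 0.32 log2, which is 17.9% and 7.14%. Among all measured features 6.04% were lower and 5.89% higher, so the share higher is close to the background. The transferrin receptor gene Tfrc had 63.2 RPKM in the treated library and 85.5 RPKM in the normal one, a ratio of 0.739 (0.724 to 0.754). Mif, the gene of a cytokine-like protein, had a ratio of 0.763 (0.711 to 0.82), the histone demethylase gene Kdm4b one of 0.777 (0.728 to 0.829) and Stc1, which encodes stanniocalcin, one of 0.685 (0.59 to 0.796). Reads listed for the erythropoietin gene Epo, with a ratio of 0.716 (0.618 to 0.828), share exons with Gnb2 on the same strand and cannot be told apart from it. Ier3, an immediate early response gene, passed the line upwards, at 5.05 RPKM in the treated library and 3.93 RPKM in the normal one, a ratio of 1.29 (1.06 to 1.56). Below 0 in log2 ratio were 18 of the 28 genes, as were 16 of the 17 glycolytic targets, beside 49.3% of all measured features.

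Paralogs of the hypoxia genes, a list in which Bnip1 and Bnip2 stand by name only, give the level of their families. Of 60 paralogs 32 were measured, 3 were lower and 0 higher past 0.32 log2, and the median was -0.03. The 3 were the MXD gene Mxd3, at 0.667 (0.621 to 0.716), the carbonic anhydrase relative Car10, at 0.721 (0.691 to 0.752), and Slc2a2. The 9.38% of paralogs that were lower compares with 26.9% of the hypoxia genes and 6.04% of all features, a contrast for which no test exists with 1 library per group.

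**Figure D5:**
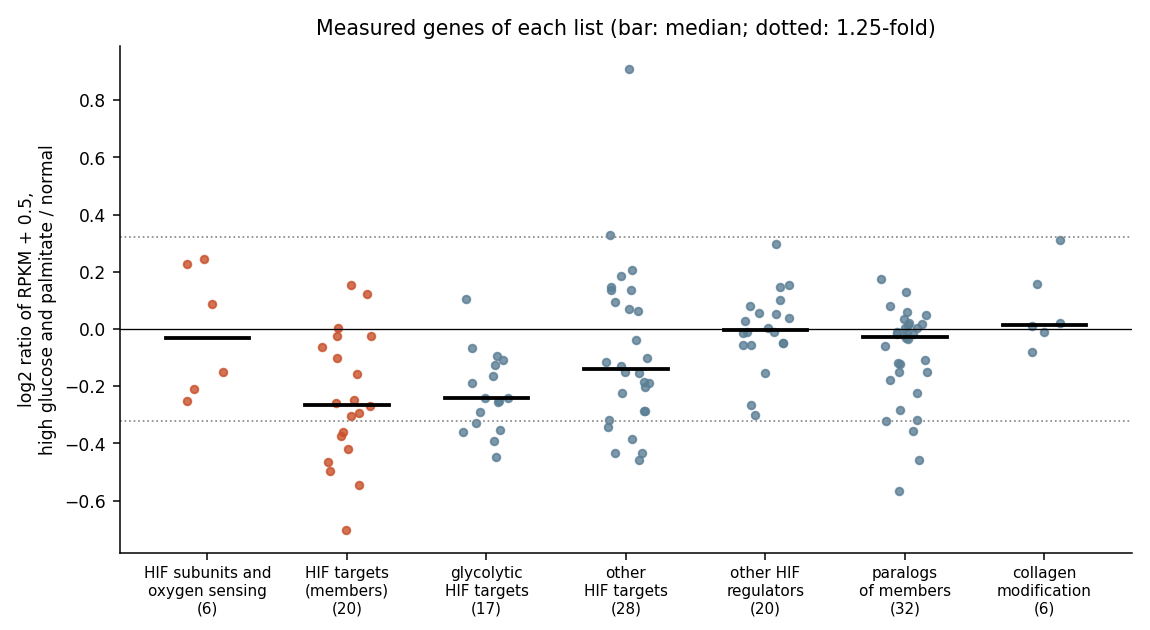
Log2 ratio of RPKM plus 0.5, treated over normal, for each measured gene of the hypoxia set (orange, 2 groups by role) and of 5 other lists (blue), with black bars at the medians and dotted lines at -0.32 and 0.32. The target genes and the glycolytic targets have the lowest medians, -0.26 and -0.24, and the other HIF regulators and collagen-modification genes have medians of -0.0028 and 0.01.

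Most beta cell markers were lower, and markers of other cell types were below 1 RPKM in both libraries except for Cd68 and Lyz2. All 9 beta cell markers were measured, with Iapp, the gene of islet amyloid polypeptide, at 4692 RPKM in the treated library and 4664 RPKM in the normal one. Of the 9, 6 were lower past 0.32 log2, with a median log2 ratio of -0.37. Among all measured features 6.04% were lower, with a median of 0.0028. The insulin gene Ins2 had 725 RPKM in the treated library and 1197 RPKM in the normal one, a ratio of 0.606 (0.599 to 0.614). Ins1, a close copy of Ins2 with which reads could be split, had 34.8 RPKM in the treated library and 66.0 RPKM in the normal one, a ratio of 0.527 (0.496 to 0.56), below that of any measured hypoxia gene. Endothelial markers, 5 of 6 listed, summed to 0.172 RPKM in the treated library and 0.115 RPKM in the normal one, with Kdr at 0 in both. Fibroblast markers, 3 of 6 listed, summed to 0.426 RPKM in the treated library and 0.394 RPKM in the normal one. Macrophage markers summed to 3.54 RPKM in the treated library and 2.19 RPKM in the normal one, with Cd68 at 2.02 and 0.901 RPKM and Lyz2 at 1.08 and 0.688 RPKM, while the pan-leukocyte gene Ptprc stood at 0.0787 and 0.0705 RPKM. The part of the beta cell markers' shift in the hypoxia genes' ratios was not tested, and fewer cells with a transcript cannot be told apart from less transcript per cell.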

How the data were processed

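RNA from 1 library per group was measured by sequencing on a stranded mRNA kit, per the labels' protocols. The authors deposited RPKM values, reads scaled by feature length and by the library's assigned reads, in 1 table with exon positions. Build GRCm39, Trimmomatic 0.36 and edgeR 3.12.1 are named, per the submitters' processing notes. Aligner, counter and strand setting: not given in the sources used here. Columns were assigned by sample titles. RPKM times length and library total gave whole reads for 100% of values within 0.01 read, and these reads gave exact Clopper-Pearson intervals of the treated share (Python 3.11.15, scipy 1.17.1). Comparisons used log2 of RPKM plus 0.5 among features of mean RPKM 1 or more and a line of 0.32 in log2 ratio, with no p-value. This scale understates differences of low genes. Every hypoxia gene was named, and of other lists at most 6 measured genes past that line, and Ldha; 1 such gene is not reported here. The genes, lists and thresholds were chosen with earlier results of these data known. The steps were tested on simulated reads.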

Additional observations from a re-analysis of the deposited data

How the results depend on the processing

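Pseudocounts of 0.1 and 1, median-of-ratios scaling and equal totals without the 10 most abundant features each left 7 of 26 hypoxia genes lower and 0 higher past 0.32 log2. Of all measured features, 5.04% to 7.33% were lower and 4.78% to 7.48% higher over these settings. The median log2 ratio of the hypoxia genes ranged from -0.24 to -0.22 over them. It was -0.15 over all 35 genes with no filter on low values and -0.25 over 19 genes of mean RPKM 5 or more. That last filter left 4 of the 19 genes lower, because fewer genes entered, where 4.82% of the 7691 features that passed it were lower. Without genes overlapping a feature on the opposite strand 3 of 16 (18.8%) were lower, again with fewer genes, and the median was -0.23. Of the 7 lower genes 4 had such an overlap and left with that setting. Among all measured features, overlapping or not, 6.04% were lower. At 1.5-fold 1 gene was lower and at 2-fold 0 were, where 1.48% and 0.366% of all measured features were. By intervals that exclude 1, 17 of 26 genes were lower and 5 higher, where 22.3% and 22% of all measured features were. Setting equal totals could change nothing, because RPKM is already scaled by the assigned total. None of the 52 single-gene log2 ratios with another pseudocount, and no single-gene ratio under the 2 other scalings, moved beyond its counting interval. No paired analysis was possible because there is 1 library per group, and leaving out a library could not be run for the same reason. Depth limits the genes with few reads, such as Car9, Car12 and Ndufa4l2.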

Other observations

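Features that share exons with hypoxia genes on the opposite strand had the following values. Gm15283, opposite Hif1a, had 24.9 RPKM in the treated library and 19.9 RPKM in the normal one, beside the ratio of 1.17 of Hif1a. Gm45507, opposite Bnip3, had 26.7 RPKM in the treated library and 37.1 RPKM in the normal one, a ratio of 0.721 beside the 0.747 of Bnip3. Wdr5b, opposite Fam162a, had 8.42 RPKM in the treated library and 7.56 RPKM in the normal one, a ratio of 1.11 beside the 0.684 of Fam162a. Gm12868, opposite Slc2a1, had 10 reads in the treated library and 17 reads in the normal one. The Ndufa4l2 gene overlaps Shmt2, a serine metabolism gene at 68.4 RPKM in the treated library and 63.7 RPKM in the normal one, while Ndufa4l2 itself had 7 and 13 reads. Among measured hypoxia genes 10 of 26 had an opposite-strand overlap, against 4904 of all 13947 measured features.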
